A study of Mus musculus with 6 samples.

Results

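The cells described here are CD11b+F4/80+ cells sorted from the femur marrow of mice that carried no graft, 2 of the 6 libraries of the series. The mice were BALB/c animals of the genotype RAG2-/-γc-/-, which have lost Rag2 and the gamma chain shared by several interleukin receptors, a background known to lack mature T, B and NK cells. The other 4 libraries, of marrow cells from mice given human Raji lymphoma cells, were not used for any level, rank or share. The age and sex of the mice, and whether each library came from 1 animal, from pooled animals or from the same cells, are not given in the labels, so a spread between the libraries may be technical. The members are the genes of the deposited table as they stood in these libraries, called day 0 A and day 0 B after the deposited columns: 17528 genes are listed, of which 17416 had a read in at least 1 of the 2. No contrast was made, so levels, orders and the spread between the libraries are given and no test was run. The label names the cells macrophages; the granule genes of neutrophils led the libraries, so the cells are called here by the markers of their sort.

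CD11b, the alpha chain of the integrin Mac-1, is carried by most myeloid cells, neutrophils and monocytes included. F4/80 is an adhesion-type receptor found on mouse macrophages and, at lower levels, on monocytes and eosinophils. In the marrow, resident macrophages clear spent cells and recycle iron, while neutrophils pass through stages in which they fill primary granules first, then secondary granules and last tertiary granules, with each granule set read from its own genes at its own stage. RNA of a sorted population gives an average over all of its cells: fewer cells of a type and less RNA per cell cannot be told apart.

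Levels are in RPM, reads per 1000000 assigned reads, given for library A and then library B. Library A held 23214517 assigned reads and library B 22363755, so that 1 RPM stood for 23.2 and 22.4 reads. Where genes are compared with each other, the level is RPM per kilobase of exons, given as mean ± SD (n = 2), with the rank among 17415 genes with a known exon length; the median of those genes was 2.35. Ratios between genes rest on this length, and many moved by over 1.5 times on the deposited RPKM scale. In the mean of the libraries, 12124 of the 17528 listed genes stood at 1 RPM or more, 8236 at 10 or more, 2152 at 100 or more and 59 at 1000 or more. Counts of list members at such levels below are to be read beside these. The log2 ratio of A to B had an SD of 0.41 among genes of 1 to 10 RPM and 0.14 among genes of 10 to 100 RPM. It was 0.06 among genes of 100 to 1000 RPM and 0.08 among the 59 genes of 1000 RPM or more. The libraries still differed by more than counting error, with a mean chi-square of 3.32 per gene over 13540 genes. Read numbers that were not whole, as arise when reads matching several genes are divided, were seen in 338 of the 1394 genes described or on a list. They are named beside some of the results that rest on them, not all. Other genes given below without such a remark also had them, as did 4 of 11 genes of the pentose phosphate list. Genes from 20000 reads up could not be judged for this.

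Genes that neutrophils use for granule and cytosolic proteins headed both libraries. Ngp, a cathelicidin-like protein of secondary granules, stood at 38642 and 37789.9 RPM, Camp, the cathelicidin antimicrobial peptide, at 11134 and 10799 RPM, and Ltf, the iron-binding lactoferrin, at 21837 and 21740.5 RPM. S100a9 and S100a8, the subunits of the calcium-binding complex calprotectin, stood at 35611 and 36093 RPM and 21604 and 22789.8 RPM. These 5 genes and Lyz2, the lysozyme of myeloid cells at 15302 and 15053 RPM, were also the first 6 in the order by RPM per exonic kilobase, from 68682 ± 653 (S100a9) to 6316 ± 19.8 (Ltf). S100a8 was higher in B and Ngp and Camp were higher in A, with gaps that were small beside the levels. Outside the granules, the first 20 genes on either scale included genes of the cell skeleton: Actb, beta actin, stood at 8856 and 8658 RPM, Tmsb4x, an actin-binding peptide, at 4526 and 4426 RPM, Flna, filamin, at 3496 and 3491 RPM, Myh9, a myosin heavy chain, at 2519 and 2516 RPM and Lcp1, the plastin of white cells, at 2290.3 and 2307 RPM. Arhgdib stood at 3098 and 3087 RPM and Anxa1, an annexin of the neutrophil cytosol, at 5174 and 5183 RPM. Eef1a1, a translation factor, stood at 1928 and 1922 RPM and mt-Co2 at 515 and 535 RPM. Hp, haptoglobin, which was placed on the primary granule list, stood at 1389 and 1376 RPM. The 4 genes with the most reads held 11.8 ± 0.0509% of all assigned reads, the first 20 held 20.4 ± 0.0882% and the first 1000 held 58.5 ± 0.0558% (n = 2).

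**Figure D1:**
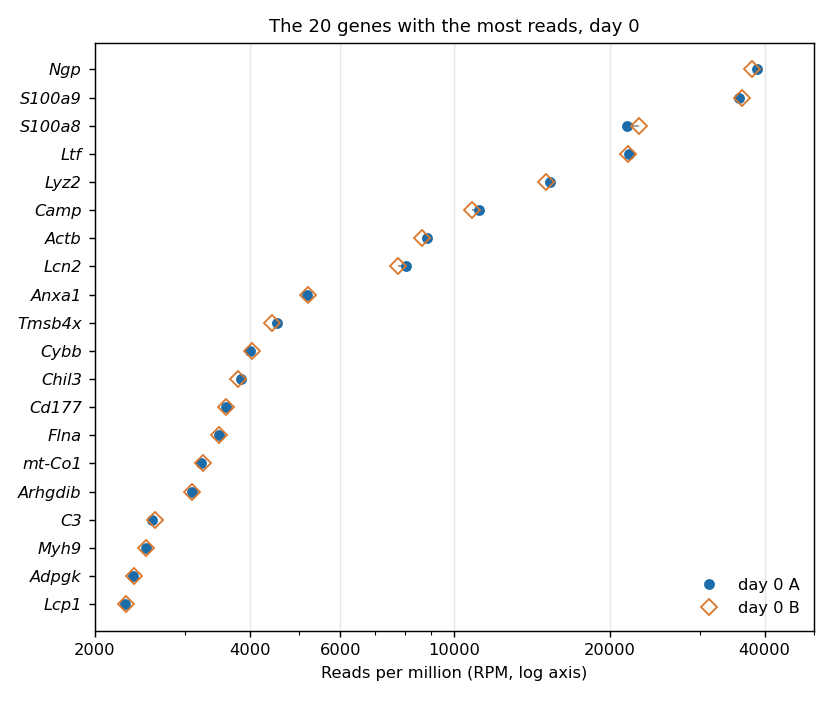
RPM (log axis) of the 20 genes with the most reads in the day 0 libraries, leaving out genes with a model or clone name; filled circles are library A and open diamonds library B. Ngp at 38642 and 37789.9 and S100a9 at 35611 and 36093 stand furthest right, and the libraries nearly coincide for each of the genes drawn.

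Promoters of the 4 genes that led the order per exonic kilobase are printed here, because these genes carry the main feature of the libraries. They are RefSeq windows on GRCm38.p6, of 300 bases each, from 250 bases before to 50 after the annotated gene start, and are written 5′ to 3′ on the gene's strand. Capitals mark matches to 3 motifs on either strand: TTNNGNAA, the form bound by C/EBP factors, GAGGAA, the core bound by PU.1 and other ETS factors, and TATAAA, the TATA box. S100a9 lies on the minus strand at chr3:90695672-90695971, S100a8 on the plus strand at chr3:90668821-90669120, Ngp on the plus strand at chr9:110419558-110419857 and Camp on the minus strand at chr9:109849407-109849706.
S100a9: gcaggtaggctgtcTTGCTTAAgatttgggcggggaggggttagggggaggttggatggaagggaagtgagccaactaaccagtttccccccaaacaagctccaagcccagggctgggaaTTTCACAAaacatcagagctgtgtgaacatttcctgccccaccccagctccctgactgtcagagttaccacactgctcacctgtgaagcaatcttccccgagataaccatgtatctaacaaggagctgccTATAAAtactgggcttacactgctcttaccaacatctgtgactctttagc
S100a8: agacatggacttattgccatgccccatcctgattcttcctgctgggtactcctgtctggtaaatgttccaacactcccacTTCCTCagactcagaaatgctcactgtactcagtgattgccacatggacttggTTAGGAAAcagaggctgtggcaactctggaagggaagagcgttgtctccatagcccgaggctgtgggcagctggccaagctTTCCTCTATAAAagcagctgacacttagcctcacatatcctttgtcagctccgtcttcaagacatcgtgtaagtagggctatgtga
Ngp: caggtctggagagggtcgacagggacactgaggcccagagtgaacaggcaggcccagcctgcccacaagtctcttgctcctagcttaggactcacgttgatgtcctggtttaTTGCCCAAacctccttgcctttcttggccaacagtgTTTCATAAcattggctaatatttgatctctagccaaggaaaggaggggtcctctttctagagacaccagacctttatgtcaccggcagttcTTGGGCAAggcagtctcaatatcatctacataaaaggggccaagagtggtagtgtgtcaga
Camp: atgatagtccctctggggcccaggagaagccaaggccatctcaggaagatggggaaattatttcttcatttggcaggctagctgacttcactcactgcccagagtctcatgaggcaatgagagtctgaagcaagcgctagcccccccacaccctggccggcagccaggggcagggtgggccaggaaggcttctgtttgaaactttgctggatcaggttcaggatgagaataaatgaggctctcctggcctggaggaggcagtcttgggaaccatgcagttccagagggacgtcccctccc
The C/EBP motif was found at 2 places in the S100a9 window, at 1 in that of S100a8 and at 3 in that of Ngp. GAGGAA was found at 2 places in the S100a8 window, read on the other strand, of which the second ends where the TATA motif begins. The TATA motif was found in the S100a9 and S100a8 windows. The Camp window held no match to these letters. Of 26 genes of the 3 neutrophil lists with a window, 17 held the C/EBP motif, 16 GAGGAA and 8 TATAAA. Of all 27025 genes with such windows, 44.1%, 31.3% and 15.7% held them in at least 1 window. These matches describe the letters and were not tested as binding sites.

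The genes behind the sort lay far apart. Itgam, which encodes CD11b (chromosome 7, 128062640 to 128118492 on mm10), stood at 2229 and 2246 RPM, which is 445 ± 2.404 RPM per exonic kilobase and rank 64. Adgre1, which encodes F4/80 (chromosome 17, 57358691 to 57483528), stood at 34.2 and 32.8 RPM, which is 10.3 ± 0.312 RPM per exonic kilobase and rank 4364. Per exonic kilobase, Itgam was 43.1 times Adgre1, and on the deposited RPKM scale, which counts introns, 149 times. Csf1r, the receptor for the growth factor of macrophages (chromosome 18, 61100598 to 61132150), stood at 151 and 158 RPM and rank 1835. Cd68, a lysosomal membrane protein of macrophages (chromosome 11, 69664213 to 69666154), stood at 33.6 and 37.3 RPM and rank 1743. These 4 genes were above the median of all ranked genes. Among the other genes of the sorting and macrophage list, Sirpa, which encodes the receptor for the signal CD47, stood at 683 and 701 RPM and Mrc1, the mannose receptor, at 53.7 and 51.6 RPM. Fcgr1, the high-affinity IgG receptor, stood at 7.97 and 11.1 RPM and Mertk, a receptor for dying cells, at 4.695 and 4.07 RPM.

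The granule genes of neutrophils had medians far above that of all ranked genes in every stage, with those of secondary granules in front. The 9 genes of that list held 9.19 ± 0.113% of all reads (n = 2) and a median of 2343 RPM per exonic kilobase. Besides Ngp, Ltf and Camp they included Lcn2, a binder of bacterial siderophores, at 8046 and 7761 RPM, Chil3, a chitinase-like protein, at 3846 and 3801 RPM, Cd177, a surface protein of neutrophils, at 3595 and 3604 RPM, and Olfm4 at 1332 and 1309.6 RPM. The 8 genes of the primary granule list, Hp included, held 0.368 ± 0.000471% of reads, with a median of 141 RPM per exonic kilobase. Without Hp, the member with the most reads, that share was 0.2296%. Mpo, myeloperoxidase, stood at 1159.6 and 1160.3 RPM, Elane, neutrophil elastase, at 477 and 479.5 RPM, Prtn3, proteinase 3, at 336 and 356 RPM and Ctsg, cathepsin G, at 88.2 and 83.4 RPM. Per exonic kilobase, Ngp was 64.4 times Elane. The 12 tertiary and late genes held 6.18 ± 0.115% of reads. Without S100a9 that share was 2.596%. Mmp9, gelatinase B, stood at 1176 and 1157 RPM, Mmp8, the collagenase of neutrophils, at 541 and 555 RPM, Retnlg, a resistin-like protein, at 582 and 556 RPM and Cxcr2, the chemokine receptor through which neutrophils leave the marrow, at 176 and 171 RPM. Ly6g, the antigen that defines mouse neutrophils in most sorts, stood at 803 and 816 RPM and rank 21. Together the 29 genes of the 3 lists took 15.7 ± 0.00305% of reads, and each of them stood at 10 RPM or more.

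The genes of macrophages ranged from the level of Itgam down to a few reads. The 26 genes of the 2 macrophage lists held 0.522 ± 0.00221% of reads. Without Itgam, Sirpa, Ptprc and Lamp2, which other white cells use as well, these lists held 0.115 ± 0.000435%. The primary granule list held 0.368 ± 0.000471%, but no gene shared with other cells was taken out of it, so these 2 shares are not alike. Of the 16 genes of resident marrow macrophages, 12 stood at 10 RPM or more, beside 8236 of all 17528 genes. The median of these 16 was 8.199 RPM per exonic kilobase. Slc40a1, the iron exporter ferroportin, stood at 321 and 324 RPM, Vcam1, an adhesion molecule of island macrophages, at 133 and 143 RPM, Hmox1, haem oxygenase, at 121 and 114 RPM and Axl, a receptor for dying cells, at 77.6 and 75.1 RPM. The subunits of the complement protein C1q stood at 40.8 and 36.3 RPM (C1qa), 32.8 and 28.5 RPM (C1qb) and 24.7 and 27.1 RPM (C1qc). Siglec1, the sialoadhesin of marrow macrophages, stood at 29.9 and 24.8 RPM and Cd5l, a secreted macrophage protein, at 23.4 and 21.1 RPM. Cd163, the scavenger of haemoglobin, stood at 11.3 and 10.5 RPM, Timd4 at 3.96 and 5.81 RPM and Trem2 at 2.41 and 2.91 RPM. Marco, a scavenger receptor, stood at 0.258 and 0.358 RPM, from 6 and 8 reads.

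Genes of monocytes varied from gene to gene. Ly6c2, the surface antigen of classical monocytes, stood at 674 and 643 RPM from reads that were not whole, Ccr2, their exit receptor from marrow, at 193 and 188 RPM, Fn1, fibronectin, at 346 and 359.8 RPM, Plac8 at 174 and 174 RPM and F13a1, a coagulation factor chain, at 104 and 100.3 RPM. Vcan, the proteoglycan versican, stood at 1.895 and 1.297 RPM. The 10 genes of the list held 0.576 ± 0.00644% of reads, and 0.194 ± 0.00326% without Chil3, which is also on the secondary granule list. Of the non-classical monocyte genes, Ceacam1 stood at 746 and 717 RPM, Spn at 385 and 386 RPM and Itgal at 369 and 354 RPM, which other white cells share. Cx3cr1, the fractalkine receptor, stood at 54.8 and 58.04 RPM, Ace, angiotensin-converting enzyme, at 36.9 and 36.1 RPM, Treml4 at 29.9 and 31.7 RPM and Cd300e at 3.83 and 3.17 RPM.

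Other cells that a marrow gate could hold differed widely. The 10 eosinophil genes had a median of 14.7 RPM per exonic kilobase, beside 8.199 for resident macrophage genes, and 8 stood at 10 RPM or more. Of eosinophil genes, Prg2, major basic protein, stood at 149 and 147 RPM, Ear2, a ribonuclease, at 102 and 99.7 RPM, Epx, eosinophil peroxidase, at 27.4 and 28.3 RPM and Siglecf at 10.9 and 11.7 RPM. Il5ra, the receptor of the eosinophil growth factor, stood at 1.68 and 1.07 RPM. Per exonic kilobase, Prg2 was 17.3 times Epx. Of basophil and mast cell genes, Hdc, which makes histamine, stood at 237 and 224 RPM, while Mcpt8, Cpa3 and Fcer1a stood at 4.74 and 3.53 RPM, 2.02 and 1.52 RPM and 0.215 and 0.447 RPM. Of dendritic cell genes, Cd74 and H2-Ab1, of the class II pathway, stood at 373 and 368 RPM and 145 and 136 RPM, while Flt3, Clec9a, Zbtb46 and Xcr1 stood at 3.102 and 2.77 RPM, 2.11 and 2.37 RPM, 0.603 and 0.224 RPM and 0.0862 and 0 RPM. Beside 8236 of all 17528 genes, 3 of 7 plasmacytoid dendritic cell genes stood at 10 RPM or more. They were Irf7, an interferon factor of many cells, at 52.1 and 50.98 RPM, Runx2 at 30.2 and 28.01 RPM and Tcf4, the factor that defines plasmacytoid dendritic cells, at 13.5 and 14.8 RPM. Siglech, their surface lectin, stood at 1.64 and 0.894 RPM and Bst2 at 9.56 and 9.97 RPM. Of progenitor genes, Cd34 stood at 1.12 and 1.07 RPM, Meis1 at 0.56 and 0.7602 RPM, Ly6a at 0 and 0.0894 RPM and Hlf at 10.5 and 9.57 RPM, whereas Kit stood at 44.7 and 47.5 RPM and Myb, which dividing granulocyte precursors also use, at 140.4 and 145 RPM.

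Beside 8236 of all 17528 genes, 5 of 13 red cell genes stood at 10 RPM or more. These were Tfrc, the transferrin receptor that dividing cells also use, at 108 and 112 RPM, and the haemoglobin genes, whose reads were not whole, at 97.6 and 107 RPM (Hbb-bs), 15.2 and 13.8 RPM (Hbb-bt), 53.2 and 62.7 RPM (Hba-a1) and 70.2 and 66.4 RPM (Hba-a2). Alas2, of haem synthesis, Slc4a1, an anion exchanger, and Epb42 stood at 3.89 and 3.02 RPM, 2.71 and 4.11 RPM and 0.172 and 0.358 RPM. Of platelet genes, Pf4 stood at 2.71 and 2.41 RPM, Itga2b at 3.19 and 2.37 RPM and Gp6 had no read in either library, which allows up to 0.129 and 0.134 RPM at 3 reads. Nfe2, a factor that neutrophils share with megakaryocytes, stood at 243 and 248 RPM. The mice lack mature lymphocytes, and 5 of 14 B cell genes, 6 of 14 T cell genes and 5 of 12 NK cell genes were listed in the table used here, with 1, 1 and 1 at 10 RPM or more, namely Ighm, Cd3d and Nkg7. Cd79a stood at 0.129 and 0.447 RPM, Cd3g at 0.345 and 0.492 RPM, Il7r at 0.258 and 0.0894 RPM and Klrb1c at 0.0431 and 0.268 RPM. Cd3d, a chain of the T cell receptor complex, stood at 54.6 and 53.3 RPM, Nkg7, a granule protein of killer cells, at 34.6 and 35.7 RPM and Ighm, the mu heavy chain, at 35.2 and 37.7 RPM. Per exonic kilobase, Cd3d was 232 times Cd3g, a ratio that was 285 in library A and 195 in library B and rests on 8 and 11 reads of Cd3g. Of 10 stromal genes 1, Runx2, stood at 10 RPM or more, and of 7 endothelial genes 1, Tie1, a receptor of vessel cells, at 16.4 and 15.3 RPM. Others of these lists were Col1a1 at 0.345 and 0.313 RPM, Lepr at 0.56 and 0.224 RPM, Pecam1 at 4.09 and 4.61 RPM, Cdh5 at 0.215 and 0.134 RPM and Kdr at 0.732 and 0.7602 RPM. Cxcl12, the marrow chemokine made by stromal cells, stood at 9.26 and 9.43 RPM. Of 7 osteoclast genes, 2 stood at 100 RPM or more, namely Mmp9, which is also on the tertiary granule list, and Nfatc1, a factor needed by osteoclasts, at 111 and 109 RPM. Acp5, an acid phosphatase, and Ctsk, cathepsin K, stood at 7.88 and 8.05 RPM and 4.18 and 5.32 RPM.

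**Figure D2:**
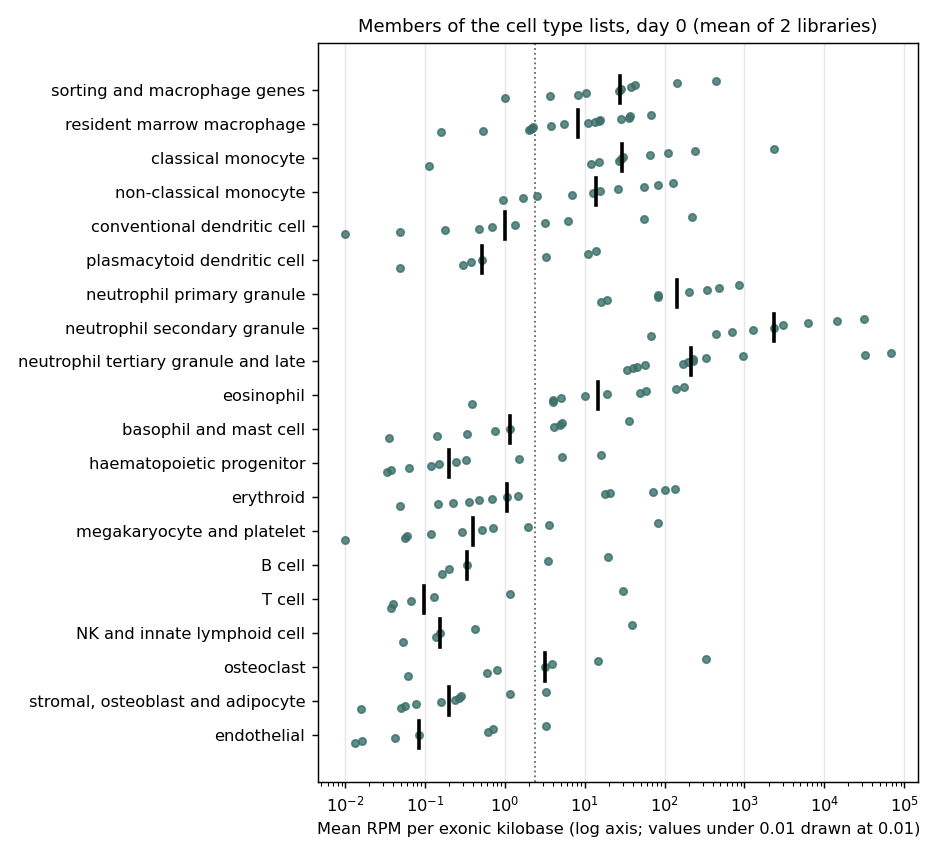
Mean RPM per exonic kilobase (log axis, n = 2) of each listed member of the cell type lists; points are genes, black bars the median of a list, and the dotted line the median of all ranked genes at 2.35. The secondary granule list has its median at 2343, the resident macrophage list at 8.199 and the T cell list at 0.0976.

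Among growth factor receptors, those for the granulocyte factors led. Csf3r, the receptor for the granulocyte colony stimulating factor, stood at 611 and 601 RPM, which is 168 ± 1.95 RPM per exonic kilobase. Csf2ra, the alpha chain of the receptor for the granulocyte-macrophage factor, stood at 370.0 and 375 RPM and 129.7 ± 1.21 RPM per exonic kilobase, and its beta chain Csf2rb at 215 and 208 RPM. Csf1r reached 26.8 ± 0.786 RPM per exonic kilobase, so that Csf3r was 6.27 times and Csf2ra 4.85 times Csf1r on that scale. Part of the reads of Csf3r, Csf2rb and Csf1r were not whole. Igf1r, the receptor for insulin-like growth factor 1, stood at 283 and 281 RPM and Insr, the insulin receptor, at 102 and 103 RPM. Flt3 and Epor, the receptors of early and red cell precursors, stood at 3.102 and 2.77 RPM and 0.775 and 0.626 RPM.

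Receptors for chemoattractants gave the order Fpr2, Ltb4r1 and Cxcr4 per exonic kilobase. Fpr2, a formyl peptide receptor, stood at 390.2 and 394 RPM and 303 ± 2.07 RPM per exonic kilobase. Ltb4r1, the receptor for leukotriene B4, stood at 359 and 361 RPM and 258 ± 0.912 RPM per exonic kilobase. Cxcr4, which holds cells in the marrow by binding Cxcl12, stood at 450.1 and 460.2 RPM and 252 ± 3.97 RPM per exonic kilobase, just below Ltb4r1 in both libraries. C5ar1, the receptor for complement fragment C5a, stood at 184 and 180.1 RPM and S1pr4, a receptor for sphingosine 1-phosphate, at 143 and 147 RPM. Per exonic kilobase, Cxcr4 was 4.42 times Cxcr2, its counterpart in release from marrow, with reads of both not whole, and Fpr2 was 9.02 times Fpr1. Of the 14 chemokine receptors listed, 3 stood at 100 RPM or more and 5 at 0.5 RPM or less. Ccr1, a receptor for inflammatory chemokines, stood at 98.3 and 101 RPM. The lymphocyte receptors Ccr7, Cxcr3 and Cxcr6 stood at 0.431 and 0.268 RPM, 0.172 and 0.134 RPM and 0.258 and 0.224 RPM. Adora2a and P2ry12, receptors for adenosine and for ADP, stood at 1.55 and 1.61 RPM and 1.08 and 1.16 RPM.

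**Figure D3:**
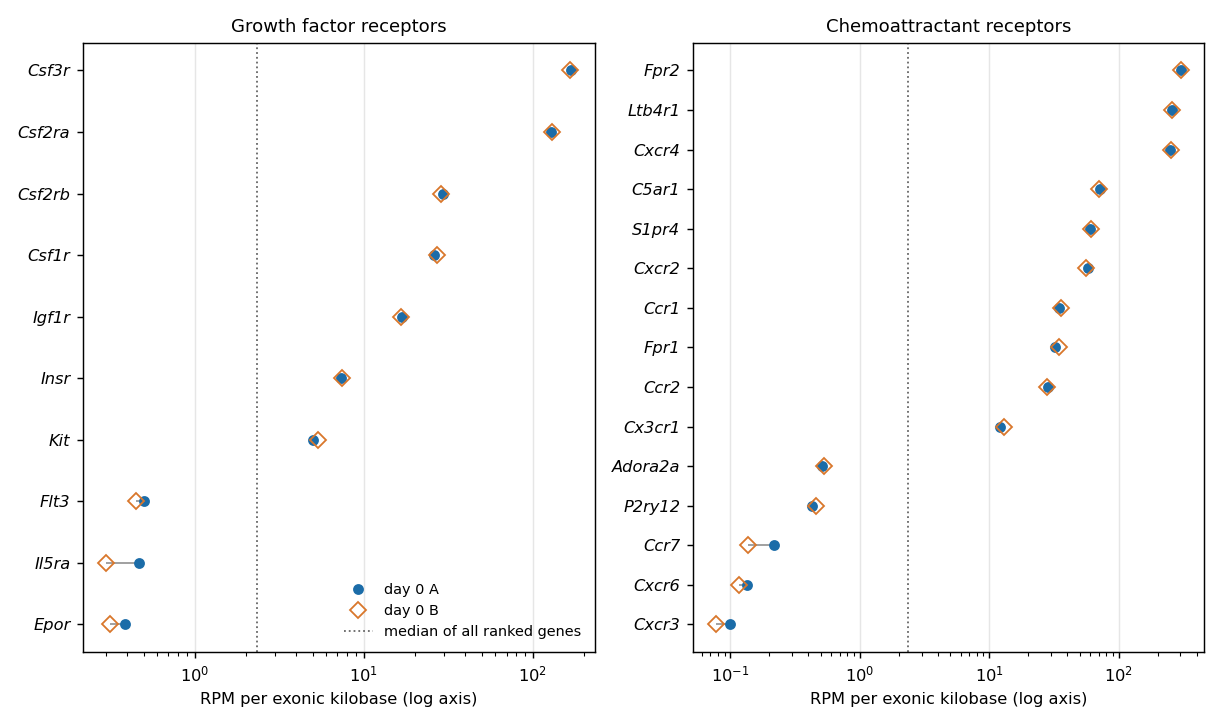
RPM per exonic kilobase (log axis) of the growth factor receptors (left) and the receptors for chemoattractants and lipids (right) named in the text; filled circles are library A, open diamonds library B, and the dotted line is the median of all ranked genes. Csf3r lies at 168 against 26.8 for Csf1r, and Fpr2, Ltb4r1 and Cxcr4 lie at 303, 258 and 252.

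Adhesion, Fc and complement receptors included several highly read genes. Itgb2, the beta chain that pairs with CD11b, stood at 1518 and 1566 RPM and 505 ± 11.1 RPM per exonic kilobase, beside 445 ± 2.404 for Itgam. Itgb1, the beta chain of the integrins that bind matrix, stood at 134 and 138 RPM, and per exonic kilobase Itgb2 was 15.2 times Itgb1. Itgax, which encodes CD11c of dendritic cells, stood at 14.6 and 15.4 RPM, and Itga4, the alpha chain of the Vcam1 receptor, at 156 and 163 RPM. Fcer1g, the signalling chain of Fc receptors, stood at 346 and 338 RPM and 391 ± 6.93 RPM per exonic kilobase, and Tyrobp, the adaptor of Trem receptors, at 372 and 368 RPM and 555 ± 3.797, each with reads that were not whole. Fcgr3, an activating IgG receptor, stood at 214 and 208 RPM, Fcgr2b, the inhibitory IgG receptor, at 161 and 159 RPM and Fcgr4 at 35.1 and 34.6 RPM. Vsig4, the complement receptor of tissue macrophages, stood at 0.775 and 0.358 RPM. Receptors that restrain myeloid cells were high as a list, with a median of 67.98 RPM per exonic kilobase and 8 of 12 at 100 RPM or more. Clec12a, a C-type lectin of this kind, stood at 672 and 659.6 RPM, Cd33 at 599.7 and 598 RPM, Lilrb4a at 371 and 375 RPM, Pirb at 286 and 291 RPM and Siglece at 163 and 156 RPM. Cd47, the ligand of Sirpa, stood at 558 and 553 RPM. Cd24a, an antigen of immature granulocytes, stood at 938 and 963 RPM, and Cd44, a receptor for hyaluronan, at 494 and 489 RPM.

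Cytokine receptors differed between the chains of 1 receptor. Il17ra, the shared chain of interleukin 17 receptors, stood at 299 and 295 RPM, Il6ra at 135 and 131 RPM and its partner Il6st, gp130, at 15.5 and 14.3 RPM. Il18rap, the accessory chain for interleukin 18, stood at 265 and 264 RPM and the ligand-binding chain Il18r1 at 23.8 and 22.7 RPM, a ratio of 8.13 per exonic kilobase. Il1r1 stood at 0.474 and 1.43 RPM, the decoy Il1r2 at 13.4 and 10.6 RPM, and Il1rn, the natural antagonist, at 46.4 and 47.0 RPM. Each of the 5 interferon receptor genes exceeded 50 RPM in both libraries, from Ifngr1 at 138 and 132 RPM to Ifnar1 at 75.1 and 71.5 RPM, and Ifnlr1, the receptor for interferon lambda, stood at 96.5 and 90.1 RPM. Tnfrsf1a and Tnfrsf1b, the receptors for tumour necrosis factor, stood at 204 and 206 RPM and 149.9 and 148 RPM, and Cd40 at 1.59 and 2.06 RPM. Among Toll-like receptors, Tlr2 had 13.8 ± 0.193, Tlr13 11.4 ± 0.675, Tlr7 6.63 ± 0.175 and Tlr4 6.43 ± 0.484 RPM per exonic kilobase, and Tlr3, which reads double-stranded RNA, 0.139 ± 0.0216. Cd14, the coreceptor for endotoxin, stood at 39.8 and 41.99 RPM, Ly96, the partner of Tlr4, at 1.42 and 2.59 RPM, and Unc93b1, which carries Toll-like receptors to endosomes, at 236 and 242 RPM. Clec5a stood at 315 and 315 RPM, Trem3 at 329 and 333 RPM, Trem1 at 111 and 116 RPM and Clec7a, the receptor for fungal glucans, at 107 and 103 RPM. Olr1, a receptor for oxidised lipoprotein, stood at 139 and 144 RPM, and Cd36, a scavenger receptor, at 9.99 and 11.5 RPM.

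Cebpe and Spi1 were the most read of the myeloid regulators per exonic kilobase. Cebpe, which drives the secondary granule genes in neutrophil precursors, stood at 504 and 519.5 RPM, 413 ± 8.66 RPM per exonic kilobase and rank 72. Spi1, which encodes PU.1 and is needed by all myeloid cells, stood at 491 and 497 RPM, 183 ± 1.56 RPM per exonic kilobase and rank 230. Cebpb and Cebpd, factors of mature and activated myeloid cells, stood at 147 and 143 RPM and 286 and 284 RPM. Cebpa, which opens the granulocyte and monocyte path in progenitors, stood at 51.1 and 55.1 RPM, and per exonic kilobase Cebpe was 20.5 times Cebpa. Gfi1, a repressor needed for neutrophils, stood at 104 and 102 RPM and its relative Gfi1b, of red cells and platelets, at 0.345 and 0.8496 RPM. Irf8 and Klf4, which direct monocytes, stood at 35.3 and 32.1 RPM and 33.04 and 32.96 RPM. Maf, a factor of mature macrophages, stood at 19.7 and 15.9 RPM, and Spic, needed by the iron-recycling macrophages of spleen and marrow, at 8.14 and 8.36 RPM.

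**Figure D4:**
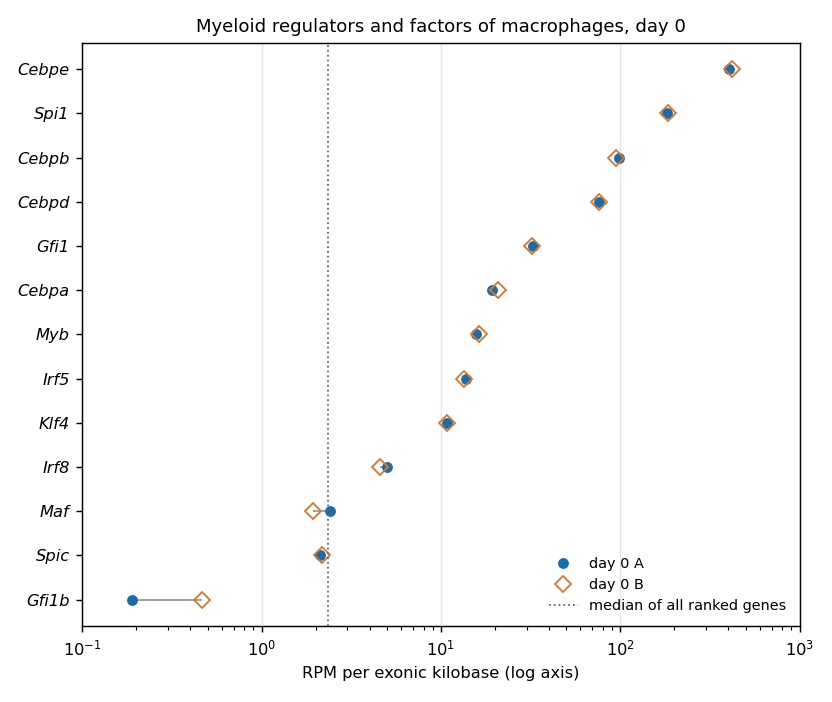
RPM per exonic kilobase (log axis) of the myeloid regulators and factors of macrophages named in the text, ordered by their mean; filled circles are library A, open diamonds library B, and the dotted line is the median of all ranked genes. Cebpe lies at 413 and Spi1 at 183, while Maf and Spic lie at 2.16 and 2.15.

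Factors of other lines varied widely in level. Of 10 listed GATA, TAL and erythroid or mast factors 5 stood at 10 RPM or more, and of 10 lymphoid factors 5. Of 16 listed ETS factors 14 did, beside 8236 of all 17528 genes. Gata1, Gata2 and Klf1, of red cells, platelets and mast cells, stood at 1.46 and 0.715 RPM, 0.991 and 0.537 RPM and 0.0862 and 0.358 RPM. Lyl1 and Lmo2, which are shared by many blood cells, stood at 195 and 195 RPM and 91.2 and 95.3 RPM, and Tal1 at 10.6 and 10.02 RPM. Ikzf1, Ikaros, stood at 511 and 527 RPM, and Id3, Tcf7 and Ikzf3 at 0.517 and 0.492 RPM, 0.56 and 0.313 RPM and 3.49 and 4.56 RPM. Of the ETS family, Ets1 stood at 416 and 418 RPM, Fli1 at 131 and 141 RPM, Erg, known from stem cells and endothelium, at 129 and 126 RPM and Spib at 1.03 and 0.671 RPM. Of the Sox family, Sox13 stood at 84.99 and 83.6 RPM and Sox4 at 1.34 and 1.03 RPM. Meis1, a factor of stem cells, stood at 0.56 and 0.7602 RPM and Hoxa9 at 0.0431 and 0.268 RPM. Klf2, Klf6 and Klf13 led the Krueppel-like factors at 82.8 ± 2.505, 71.3 ± 0.2802 and 31.3 ± 0.691 RPM per exonic kilobase.

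Factors that answer signals were also measured. Stat6 reached 48.3 ± 0.295, Stat5b 26.9 ± 0.304 and Stat3 21.2 ± 0.217 RPM per exonic kilobase. Irf1, Irf7 and Irf5 lay close together at 15.3 ± 0.1803, 13.6 ± 0.207 and 13.6 ± 0.2402 on that scale. Early response genes, which also rise when cells are handled and sorted, were plentiful: Fos stood at 415 and 412 RPM, Junb at 312 and 313 RPM, Ier2 at 472 and 483 RPM, Zfp36 at 638 and 617 RPM and Egr1 at 100.2 and 92.2 RPM. Of that list 15 of 15 genes stood at 10 RPM or more, with a median of 27.4 RPM per exonic kilobase. Whether the sort moved them was not tested. Hif1a, the oxygen-sensitive factor, stood at 76.6 and 74.3 RPM and Epas1 at 0.905 and 0.492 RPM. Srebf2, which controls cholesterol genes, stood at 206 and 197 RPM and Srebf1, which controls fatty acid genes, at 46.7 and 45.9 RPM. Nr3c1, the glucocorticoid receptor, stood at 178 and 172 RPM and Vdr, the vitamin D receptor, at 0.129 and 0.224 RPM.

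Genes of dividing cells were at high levels. Mki67, a protein of cycling nuclei, stood at 1209.7 and 1224 RPM, Top2a, a topoisomerase of dividing cells, at 768 and 767 RPM, Ccna2 at 274 and 276 RPM, and Pcna at 188 and 193 RPM. Of the 29 genes of the list, 18 stood at 100 RPM or more, beside 2152 of all 17528 genes. The median of the list was 36.2 RPM per exonic kilobase. Ccnd3, the D-type cyclin, stood at 751 and 769.7 RPM, and per exonic kilobase it was 150.3 times Ccnd2, while Ccnd1 stood at 2.27 and 2.76 RPM. Tfdp1, the partner of E2F factors, stood at 459 and 445 RPM, and E2f2, E2f8 and Foxm1 stood at 245 and 239 RPM, 241 and 243 RPM and 201 and 202 RPM. Myc stood at 8.18 and 9.52 RPM and Mxd1, which opposes it and is found in maturing granulocytes, at 577 and 569.9 RPM, a ratio of 24.9 per exonic kilobase. The inhibitor Cdkn2d stood at 139.9 and 151 RPM and Cdkn1a at 14.6 and 16.99 RPM.

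Of several enzymes and carriers of glucose metabolism, 1 form far exceeded the others. Slc2a3, a high-affinity glucose carrier, stood at 442 and 415 RPM and Slc2a1 at 13.2 and 13.3 RPM, a ratio of 15.6 per exonic kilobase. Hk3, a hexokinase of myeloid cells, had 189 ± 3.12, Hk2 24.2 ± 0.124 and Hk1 22.7 ± 0.346 RPM per exonic kilobase. Adpgk, a glucokinase that uses ADP, stood at 2376 and 2385 RPM and 248 ± 0.675 RPM per exonic kilobase. Further down, Gpi1, which isomerises glucose 6-phosphate, stood at 1322 and 1285 RPM, and the phosphofructokinases Pfkl, Pfkp and Pfkm had 5.07 ± 0.213, 3.11 ± 0.0271 and 0.518 ± 0.0885 RPM per exonic kilobase. The kinases that make their activator, Pfkfb4 and Pfkfb3, stood at 219.6 and 221 RPM and 148 and 151 RPM. Aldoa, whose exon length was not used here, stood at 718 and 699 RPM, Tpi1 at 191 and 189 RPM, Gapdh at 188 and 195 RPM, Pgk1 at 131 and 141 RPM, Pgam1 at 414 and 409.8 RPM, Eno1 at 227 and 218 RPM and Pkm, pyruvate kinase, at 1836 and 1837 RPM. The reads of Slc2a3, Hk3, Aldoa, Gapdh, Pgk1, Pgam1, Eno1 and Ldha were not whole, so their values may depend on how shared reads were divided. Ldha, which makes lactate, was 15.1 times Ldhb, and Slc16a3, a lactate exporter, 16.6 times Slc16a1, both per exonic kilobase. Glycogen genes covered storage and release: Gys1, glycogen synthase, stood at 247 and 252 RPM, Gbe1, the branching enzyme, at 96.2 and 97.5 RPM and Pygl, the phosphorylase that frees glucose units, at 983 and 979 RPM. Pygl was 29.1 times Pygb per exonic kilobase.

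The pentose phosphate pathway and the oxidase it feeds were at high levels. G6pdx, which opens the pathway and yields NADPH, stood at 747 and 769 RPM, Pgd, its second source of NADPH, at 1317 and 1308 RPM, and the sugar-exchanging enzymes Tkt and Taldo1 at 1839 and 1877 RPM and 642 and 648 RPM. Pgls, Rpe and Rpia, the steps between them, stood at 134 and 134 RPM, 113 and 118 RPM and 126 and 122 RPM. Me1, the cytosolic malic enzyme, stood at 1.03 and 0.7602 RPM and Me2, the mitochondrial one, at 175 and 179 RPM. The phagocyte oxidase, which spends NADPH to make superoxide, had several highly read genes: Cybb stood at 3999 and 4041 RPM, Cyba at 659.9 and 669.6 RPM, Ncf1 at 2086 and 2086 RPM, Ncf4 at 814 and 799 RPM and its activator Rac2 at 1767 and 1713 RPM. Per exonic kilobase Cybb had 692 ± 5.06, Cyba 639.8 ± 6.62, Ncf1 569.5 ± 0.0129, Rac2 561 ± 12.3 and Ncf4 399 ± 5.23, and the reads of Cyba and Ncf4 were not whole. Gpx1, a glutathione peroxidase, was 26.9 times Gpx4 per exonic kilobase, and Gsr, which restores glutathione, stood at 549.8 and 544 RPM. Sod1 and Sod2, with reads that were not whole, stood at 27.9 and 29.6 RPM and 33.8 and 27.99 RPM.

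**Figure D5:**
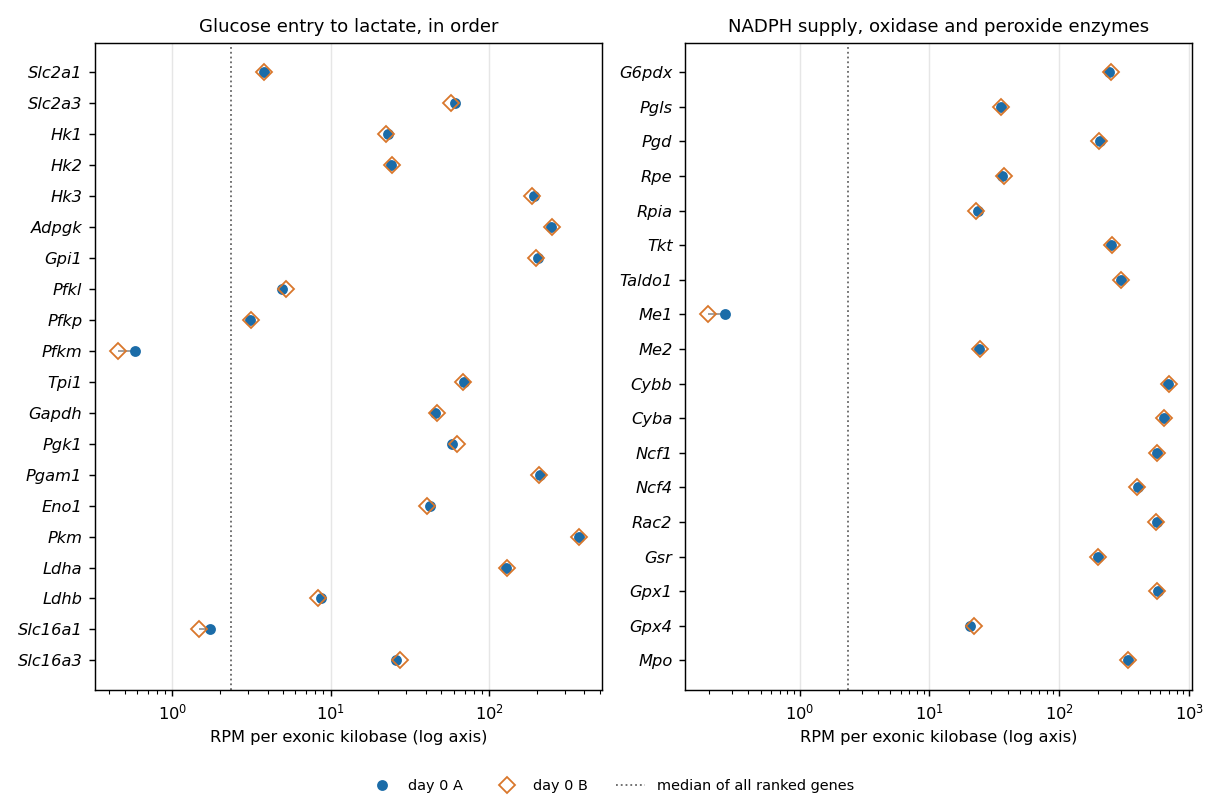
RPM per exonic kilobase (log axis) of the steps from glucose entry to lactate export in pathway order (left) and of NADPH sources, oxidase subunits and peroxide enzymes (right); filled circles are library A, open diamonds library B, and the dotted line is the median of all ranked genes. Hk3 lies at 189 beside 22.7 for Hk1, Slc2a3 at 59.2 beside 3.79 for Slc2a1, and Me1 at 0.233.

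Mitochondrial genes covered a wide range. The 15 genes of the mitochondrial genome, its ribosomal RNAs included, held 0.755% and 0.758% of reads, led by mt-Co1, a subunit of the terminal oxidase, at 3217 and 3254 RPM. The 18 nuclear genes of the respiratory chain had a median of 39.8 RPM per exonic kilobase, and Atp5b, a subunit of ATP synthase, stood at 497 and 484 RPM. Of the tricarboxylic acid cycle, Cs, citrate synthase, stood at 179 and 171 RPM, Idh3a at 25.2 and 23.7 RPM, Ogdh at 179 and 181 RPM, Suclg1 at 38.3 and 37.6 RPM, Sdha at 132 and 119 RPM, Fh1 at 36.7 and 35.8 RPM and Mdh2 at 220.4 and 218 RPM. Pcx, which refills the cycle from pyruvate, stood at 3.27 and 3.67 RPM. Acod1, which makes itaconate in activated macrophages, stood at 1.16 and 0.626 RPM.

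Lipid genes were uneven along their pathways. Acly, which makes acetyl-CoA in the cytosol, stood at 322 and 322 RPM, while Fasn, fatty acid synthase, stood at 21.02 and 19.7 RPM and Scd1, a desaturase, at 0.649 and 0.5397 RPM. Dgat1, the last step of triglyceride synthesis, stood at 141 and 141 RPM and was 24.7 times Fasn per exonic kilobase. Acsl1, which activates fatty acids, stood at 368 and 371 RPM, Cpt1a, which admits them to mitochondria, at 153 and 157 RPM and Hadha, of beta oxidation, at 133 and 133 RPM. Abca1, a cholesterol exporter, stood at 8.27 and 8.18 RPM. Apoe, a lipid carrier, stood at 330.3 and 332 RPM. In the leukotriene pathway, the genes from 5-lipoxygenase to leukotriene B4 were well read. Alox5, 5-lipoxygenase, stood at 451 and 468 RPM, its partner Alox5ap at 497 and 488 RPM and Lta4h, which makes leukotriene B4, at 919.7 and 904 RPM. Ltc4s, which makes the cysteinyl leukotriene, stood at 0.129 and 0.134 RPM. Of prostaglandin genes, Ptgs1 stood at 185 and 177 RPM and the inducible Ptgs2 at 47.99 and 50.4 RPM.

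Arginine enzymes of activated macrophages were near zero. Nos2, inducible nitric oxide synthase, had no read in either library, and Arg1, arginase 1, had 5 and 3 reads. Ido1, which breaks down tryptophan, stood at 0.302 and 0.402 RPM. Glud1, which moves glutamate into the cycle, stood at 248 and 257 RPM, and Slc38a2, an amino acid carrier, at 209 and 208 RPM. Rrm2 and Rrm1, which make deoxynucleotides, stood at 337 and 341 RPM and 249 and 261 RPM, while Phgdh, the first step of serine synthesis, stood at 1.67 and 2.02 RPM. Iron was represented by the ferritin chains Ftl1 and Fth1 at 817 and 769.6 RPM and 481 and 471 RPM. Of lysosomal genes, Psap, which encodes lipid-degrading cofactors, stood at 1195 and 1217 RPM, and Ctsd and Ctsl, cathepsins, at 403 and 410.1 RPM and 10.4 and 8.14 RPM.

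Mediators and antigen presentation were the last groups described. Ccl6, a chemokine of myeloid cells, had 99.2 ± 4.17, Tnf, tumour necrosis factor, 40.9 ± 1.17 and Il1b, interleukin 1 beta, 39.9 ± 1.88 RPM per exonic kilobase. Tgfb1 stood at 182 and 179.5 RPM, Vegfa, the vessel growth factor, at 97.1 and 97.2 RPM and Osm at 68.1 and 60.99 RPM. Il6 stood at 0.302 and 0.0894 RPM, Il10 at 0 and 0.0447 RPM and Cxcl3 had no read in either library. B2m and H2-D1, of class I molecules, stood at 552 and 549 RPM and 566 and 560.0 RPM, and the class II genes H2-Aa and H2-Eb1 at 149 and 144 RPM and 110.1 and 108 RPM. Cd274, which restrains T cells, stood at 4.65 and 4.96 RPM.

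The genes named in the genotype had reads. Il2rg, which encodes the common gamma chain, stood at 32.7 and 28.7 RPM and Rag2 at 1.68 and 2.102 RPM, from 39 and 47 reads. Rag1, its partner in antigen receptor rearrangement, had no read in either library. Totals per gene do not show which exons the reads lie in, so a deleted stretch could not be examined and these values check no label. Of the partners of the gamma chain, Il4ra stood at 29.7 and 28.6 RPM, Il21r at 3.06 and 3.49 RPM and Il7r at 0.258 and 0.0894 RPM.

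The libraries parted most at a small set of genes. Among genes of 10 RPM or more with a symbol other than a model or clone name, Commd1b was highest in A relative to B at 25.6 and 10.1 RPM, followed by the mitochondrial gene mt-Nd3 at 24.5 and 14.2 RPM. Lars2, a mitochondrial leucyl-tRNA synthetase, was lowest in A relative to B at 171 and 257 RPM, with a log2 ratio of A to B of -0.59 and a 95% counting interval of -0.65 to -0.53, which covers counting error only. The reads of Commd1b, mt-Nd3 and Lars2 were not whole. The next genes higher in A were Zfp277, Adnp, mt-Atp8, Rpl23, Nphs1 and Dpm1, with log2 ratios of A to B from 0.58 (Zfp277) to 0.49 (Dpm1). The next genes lower in A were Supv3l1, Dclk2, Dyrk1b, Trex1, H3c2, Septin10 and Rab40c, from -0.50 (Supv3l1) to -0.44 (Rab40c). A ribosomal RNA gene with a clone name, CT010467.1, also stood lower in A, at 3447 and 5063 RPM. Among the 6084 genes of 10 to 100 RPM, 4 differed by 2-fold or more, and no gene of 100 RPM or more did.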

How the data were processed

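RNA of sorted cells was extracted with a Qiagen kit, per the labels' protocols, and the submitters' processing notes name the build mm10 and the aligner STAR 2.5.3a. The sources used here name no counting tool, annotation or gene filter. No listed gene held fewer than 10 reads over the 6 libraries together, so a gene that is not listed may still have had reads. The authors deposited 1 table of 17528 genes. Its name speaks of raw counts, but the deposited values are RPKM over the whole gene, introns included: times (stop − start) / 1000 each library sums to 1000000. These products are the RPM used. The worth of 1 read was recovered from the steps between low values, a procedure tested on simulated libraries; 77.9% (A) and 78.9% (B) of genes then had whole reads, within 0.05 reads plus 1e-05 per read. Exon lengths are unions of GENCODE M21 exons for 17415 genes whose annotated span covers and is covered by the table's by at least 90%. This length ignores which isoform is used.

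Members, the 68 gene lists, the 32 families and the ratios were chosen with earlier results of these data known, the families and ratios after their levels were seen. Of 907 list members, 852 were listed; 3 of these had no usable exon length. Named genes were taken from the 4 sorting markers, the 20 first by RPM and by RPM per exonic kilobase, members of lists of at most 16 genes, the 8 highest, 4 lowest and pathway steps of longer lists, and the 8 largest differences between libraries each way among genes of 10 RPM or more; other genes were chosen after their values were seen. Some list members are not reported here. No test was run, as the libraries form 1 group. Other totals, lengths, thresholds and pseudocounts (0.1 RPM in log2 ratios) and each library alone were tried. Calculations used Python 3.11.15 with pandas 2.3.3, numpy 2.4.6 and scipy 1.17.1, and figures drawn with matplotlib 3.10.9.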

Additional observations from a re-analysis of the deposited data

How the results depend on the processing

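No paired analysis was possible because the deposited columns carry no replicate numbers and no groups were compared. The shares of reads had the order of size secondary granule, tertiary and late, classical monocyte, primary granule and resident macrophage. As shares of protein-coding reads they were 9.56%, 6.43%, 0.599%, 0.383% and 0.0897%. That setting divides each share by the same total, so it cannot change the order of these shares. Without the member with the most reads they were 5.37%, 2.596%, 0.194%, 0.2296% and 0.0539%, so that primary granules passed classical monocytes. Keeping members of whole reads alone also leaves out every gene too abundant to judge, so that setting cannot test the order. The secondary granule share was then 0.0289%. No member of that list was found to have reads that were not whole, and 8 of its 9 members stood at 1000 RPM or more. Its fall thus came only from leaving out abundant genes. The tertiary and late share was 0.155%, the classical monocyte share 0.0842% and the primary granule share 0.0736%. The resident macrophage share did not move, because that list lost no member. It then stood above the secondary granule, classical monocyte and primary granule shares, a place from which no conclusion is drawn. With 2 libraries each alone lies within 1 SD of their mean by construction, so the single libraries give no check of these shares. The number of genes at 1 RPM or more was 12144 and 12117 in the single libraries, beside 12124 in their mean. It rose to 13310 at 0.5 RPM and to 17416 with any read. The limit set for a move was 1.5 times the main number. Lower thresholds could not pass it, because only 17528 genes are listed. The SD of the log2 ratio at 10 to 100 RPM was 0.13 to 0.14 with pseudocounts of 0.5 and 1 and with totals that left out the 20 most abundant genes. The RPM levels did depend on those totals: 767 of 852 list members moved by at least the SD of the 2 libraries. Such totals multiply every level by 1.255 in A and 1.257 in B. The order of genes within a library therefore stays the same. Ranks depend on length: 246 of 849 ranked members moved by over 10 percentile points on the deposited RPKM, 171 with RPM and no length and 83 of 845 among protein-coding genes, against 1 and 0 in the single libraries. Ratios depend on it too, by alternatives chosen after seeing the data: of 30 ratios computed, 16 moved by over 1.5 times on RPKM and 18 on RPM. On RPKM, Csf2ra to Csf1r was 17.004, Gpx1 to Gpx4 145, Ldha to Ldhb 39.9, Pygl to Pygb 46.2, Slc16a3 to Slc16a1 31.8, Ccnd3 to Ccnd2 40.04, Mxd1 to Myc 14.6 and Dgat1 to Fasn 12.999. Prg2 to Epx was 5.31 on RPM. The order of S100a9 and S100a8 was reversed on RPKM, with a ratio of 0.553 against 2.15 per exonic kilobase. Of the first 20 genes, 13 were shared with the order on RPKM and 14 with that on RPM. At these depths a gene without a read may stand at up to 0.129 RPM in A and 0.134 RPM in B.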

Other observations

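Y-linked genes had reads, with Ddx3y at 55.4 and 53.8 RPM and Eif2s3y at 73.3 and 74.3 RPM, while Xist stood at 0 and 0.0894 RPM; these genes were chosen after their values were seen. C3, the central complement protein, was among the 20 genes with the most reads at 2584 and 2621 RPM, beside C3ar1, a receptor for its fragment, at 4.09 and 3.62 RPM. Abca13, a very long transporter gene of the table, stood at 395 and 387 RPM, and Adgrg3, an adhesion-type receptor like F4/80, at 289 and 285 RPM, which is 41.6 ± 0.439 RPM per exonic kilobase against 10.3 ± 0.312 for Adgre1. Adgre5, which encodes CD97, stood at 85.9 ± 1.22 on that scale. Of 77 cytosolic ribosomal protein genes, 67 had reads that were not whole, so their single values may depend on how shared reads were divided. Mmp25, a membrane-bound metalloproteinase, stood at 399 and 416 RPM. Wfdc21, a small secreted inhibitor-like protein, stood at 735 and 727 RPM and rank 14 of the genes ranked per exonic kilobase.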
